A study of Mus musculus with 15 samples.

Results

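The cytosolic ribosomal protein genes were examined in RNA-Seq counts from the podocyte fraction of mouse kidney, that is, cells pulled from digested cortex with nephrin antibodies and magnetic beads. A gene was a member if it was annotated as protein-coding, its symbol began with Rpl or Rps followed by a digit or was Rpsa, and it was neither an S6 kinase gene (Rps6k) nor a symbol marked as a pseudogene. The rule took 83 of the 46078 genes in the table, 49 with Rpl symbols (large subunit) and 34 with Rps symbols (small subunit). Of these, 74 are the canonical subunit genes, and 9 are paralogs or genes that share the name only: Rpl3l, Rpl7l1, Rpl10l, Rpl22l1, Rpl36al, Rpl39l, Rps27l, Rps27rt and Rps19bp1. Rps19bp1, a binding partner of RPS19 and SIRT1, and Rpl7l1, a relative of RPL7 found in precursor ribosomes, are not themselves proteins of the cytosolic ribosome, so for these the symbol rule and the label part ways. Rplp0, Rplp1, Rplp2 and Fau, which also encode ribosomal proteins, and Rack1, a protein bound to the small subunit, fell outside the rule and are given beside the members.

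All mice were male C57BL/6J. Young mice were 4 months old and received no injection (n = 5). Aged mice were 21 months old and received weekly intraperitoneal injections of 12 mg/kg for 8 weeks, either of the anti-PD-1 antibody RMP1-14 (aged aPD1ab, n = 4, titled 47 days in the labels) or of the isotype control antibody 2A3 (aged IgG2a, n = 4). Young mice therefore differed from both aged groups in injection as well as in age, and the young comparisons cannot tell these apart. Each library came from 1 mouse, and the counts were raw reads per gene, 19912969 to 32717100 in a library.

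A ribosome is built from a large and a small subunit, each an assembly of ribosomal RNA and many proteins held in fixed proportion, and dividing or secreting cells make large amounts of the mRNAs for these proteins. Most of these mRNAs begin with a C followed by a run of pyrimidines, the 5′ terminal oligopyrimidine (TOP) tract, through which mTORC1 and LARP1 control their translation together. Podocytes do not divide in the adult and depend on sustained protein synthesis, and mTORC1 activity in podocytes is known from diabetic and aging kidney.

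The sequence around each annotated start was searched for such a run, and a gene counted if any of its listed starts had it. RefSeq starts on GRCm38.p6 were matched by symbol for 64 members, and the other 19, among them members on a chromosome not printed here, were not used. A C at the start followed by 4 or more of C or T, on the transcribed strand, was present for 13 of the 64 members (20.3%) and for 3.01% of all 27025 genes with a start. With a run allowed to begin within 5 bases of the start, the counts were 29 members (45.3%) and 21.2% of all genes. In the 250 bases before and 50 bases after the start, searched on both strands with letters that do not contain each other, GGGCGG was present for 60.9% of members and 38.2% of all genes, TATAAA for 9.38% and 15.7%, and ACTTCCG for 35.9% and 7.2%. The windows below hold 15 bases before and 15 from the first start listed, 5′ to 3′, with the run in capitals where 1 begins within 5 bases of the start. They show members with a large or a small response to the groups, and 4 paralogs, of which Rps27l and Rpl36al stand beside their parent genes.
Rpl38, chr11:114668565-114668594, plus strand: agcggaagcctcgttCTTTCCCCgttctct
Rpl28, chr7:4792950-4792979, plus strand: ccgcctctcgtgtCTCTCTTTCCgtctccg
Rpl41, chr10:128549154-128549183, minus strand: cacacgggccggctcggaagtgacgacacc
Rps6, chr4:86857353-86857382, minus strand: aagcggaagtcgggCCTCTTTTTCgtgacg
Rpl15, chr14:18270972-18271001, minus strand: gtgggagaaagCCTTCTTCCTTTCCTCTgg
Rps27, chr3:90213634-90213663, minus strand: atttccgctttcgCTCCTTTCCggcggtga
Rps27l, chr9:66946071-66946100, plus strand: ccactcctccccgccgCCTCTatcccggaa
Rpl36a, chrX:134585639-134585668, plus strand: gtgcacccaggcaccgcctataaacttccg
Rpl36al, chr12:69184053-69184082, minus strand: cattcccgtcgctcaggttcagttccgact
Rpl22l1, chr3:28805493-28805522, plus strand: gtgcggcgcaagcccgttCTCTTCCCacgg
Rpl7l1, chr17:46782642-46782671, minus strand: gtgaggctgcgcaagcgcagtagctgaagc

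These windows place the beginning of the run at the start itself for Rpl38, after it for Rpl22l1 and Rps27l and before it for Rpl28, Rps6, Rpl15 and Rps27, while Rpl41, Rpl36a, Rpl36al and Rpl7l1 held no such run there. The annotated start can lie some bases from the one used, so a missing run says only that these letters are not in this window.

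One library stood apart before any member was compared. Aged IgG2a replicate 1 had 29.3% of its counts on mitochondrially encoded genes, within the range of the young libraries (23.1% to 30.4%), whereas the other 3 aged IgG2a libraries had 38.7%, 46.2% and 54.9% and the aged aPD1ab libraries 20.4% to 38.5%. The summed level of 10 proximal tubule markers was 5301 TMM-scaled CPM (counts divided by the library total times a factor, 0.726 to 1.18 here, set so that most genes match between libraries) in that library and 1031 to 1646 in the other 3 aged IgG2a libraries, against 6670 to 10490 in young and 5388 to 16106 in aged aPD1ab libraries. For the members as a whole, the counts called and the medians that use the aged IgG2a group are given with and without it. Other results include it unless stated. Podocyte markers were detected in every library, summing to 1033 to 1603 CPM in young, 571 to 762 in aged IgG2a and 340 to 952 in aged aPD1ab libraries. Since the fractions are bulk samples, fewer cells of a type and less RNA per cell cannot be told apart.

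As a share of all counts, the 83 members took 1.67%, 1.66%, 1.35%, 1.51% and 1.89% in the young libraries, 1.64%, 2.12%, 1.90% and 1.66% in aged IgG2a and 2.26%, 2.02%, 2.50% and 2.41% in aged aPD1ab libraries. Every aged aPD1ab library lay above every young library, and the aged IgG2a libraries overlapped the young. The means were 1.62% ± 0.203 (SD, n = 5), 1.83% ± 0.227 (n = 4) and 2.30% ± 0.209 (n = 4). Outside mitochondrially encoded genes, which took a large part of the aged IgG2a counts, the share was 2.20% ± 0.271 in young, 3.25% ± 0.621 in aged IgG2a and 3.20% ± 0.592 in aged aPD1ab mice. By that measure aged IgG2a replicates 2 to 4 lay at 3.46%, 3.53% and 3.67%, above every young library, and replicate 1 lay at 2.33%, inside the young range of 1.93% to 2.59%. Aged aPD1ab replicate 3 was the highest of all at 4.06%. The plot of counts by library shows the same libraries on 3 scales.

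**Figure D1:**
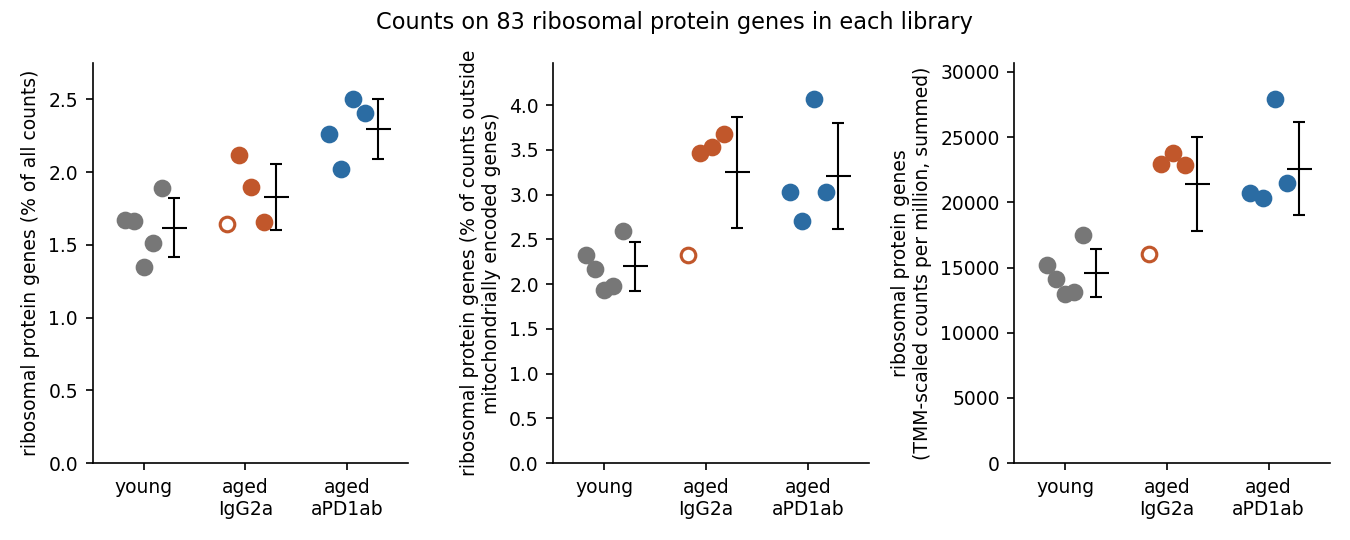
Counts on the 83 ribosomal protein genes in each library, as percent of all counts (left), as percent of counts outside mitochondrially encoded genes (middle) and as summed TMM-scaled CPM (right). Each point is a library, the open point is aged IgG2a replicate 1, and the bar gives the group mean ± SD (n = 5, 4 and 4). All aged aPD1ab libraries lie above all young libraries on each scale, and aged IgG2a replicate 1 lies among the young.

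Levels per length were compared as TMM-scaled CPM per kb of transcript. Over all libraries the members with the highest mean were Rpl10 at 673 CPM per kb, Rps9 (664), Rps29 (647), Rps12 (559) and Rps15 (557). The order changed with the group: Rpl10 was first in young (545), Rps9 in aged IgG2a (795, with Rpl10 at 764) and Rps29 in aged aPD1ab mice (773, with Rps9 at 747 and Rpl10 at 742). Rpl10 lies beside the peptidyl transferase center of the large subunit, and RPS9, RPS12, RPS15 and RPS29 belong to the small subunit. At the other end, Rpl3l, a paralog of Rpl3 known from heart and skeletal muscle, was at 0.994 CPM per kb. Rpl10l and Rpl39l, paralogs known from testis, did not pass the filter on low counts, with Rpl10l listed at 0 in every library and Rpl39l above 0 in 2 libraries at 0.112 CPM or less. Rpl24, a canonical large subunit gene, was at 0.982 CPM per kb, and 71.5% of its exon bases lie under another annotated gene on the same strand, so its counts cannot stand for its mRNA. Many members also share sequence with other genes: 49 of the 83 shared 50% or more of their 50-base stretches with another annotated gene (median over members 55.5%), and how such reads were assigned could not be seen in the table.

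To ask what differed with age under the control antibody, aged IgG2a was compared with young mice. Of the 81 members that passed the filter, 67 rose and 0 fell (edgeR quasi-likelihood test, with a Benjamini-Hochberg adjusted p below 0.05 as the call, adjusted across the whole table). Of all 15953 genes tested, 9.05% rose and 8.38% fell. The median log2 fold change was 0.64 for the members and 0.04 for all genes, and 79 of the 81 members had a value above 0. Of the canonical genes 65 of 74 rose, 39 of 43 of the large and 26 of 31 of the small subunit, with medians of 0.62 and 0.66. Among the called members 0 had a change of over 2-fold.

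These calls lay close to the threshold. The adjusted p of the 67 called members ran from 0.0139 to 0.0483 (edgeR), and leaving out 1 library of the 9 gave between 1 and 76 called members, although the median stayed between 0.58 and 0.75. Without aged IgG2a replicate 2, 3 or 4 the counts were 2, 1 and 3, and without young replicate 1, 2, 3 or 4 they were 11, 9, 3 and 7. The calls over all genes dropped as well, from 1443 higher with all libraries. They were 288, 260 and 485 without aged IgG2a replicate 2, 3 or 4. Leaving out young replicate 1, 2, 3 or 4 gave 454, 603, 345 and 443. Without aged IgG2a replicate 1, 76 of 81 rose and 0 fell (median 0.75), beside 22.1% and 23.5% of all genes. The scale matters as well: with library totals alone, a scaling chosen after seeing the data, 0 members passed by edgeR (0 at an unadjusted p under 0.05), their median was 0.18 beside -0.38 for all genes, and 331 genes rose and 3380 fell. The members lay 0.60 above the median of all genes with TMM scaling and 0.56 above it with totals alone.

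Rps12, a small subunit protein also tied to cell competition, led the canonical genes. It was at 195, 185, 176, 168 and 232 CPM in young libraries and at 224, 353, 378 and 344 in aged IgG2a libraries. Aged IgG2a replicate 1 lay below the highest young library and the other 3 lay above all of them, and the log2 fold change was 0.85 (SE 0.18, edgeR adjusted p = 0.0199). Rps29 followed at 0.83 (SE 0.19, edgeR adjusted p = 0.0217). Rps27rt, an intronless copy of Rps27, had the highest value at 1.04 but did not pass the test (SE 0.35, edgeR adjusted p = 0.0657), with 2.72 CPM in aged IgG2a replicate 1 and 8.69 to 9.79 in the other 3. It shares 91.1% of its 50-base stretches with other genes, so reads of Rps27 and Rps27rt may be exchanged.

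Members with roles outside the ribosome moved within the same range. RPL5 and RPL11, which with 5S RNA bind MDM2 when ribosome assembly fails, had log2 fold changes of 0.55 (SE 0.16, edgeR adjusted p = 0.0385) and 0.59 (SE 0.15, adjusted p = 0.0307). Rps6, whose product is phosphorylated downstream of mTORC1, was at 255, 240.3, 222, 225 and 282 CPM in young and 251, 381, 368.7 and 382.98 in aged IgG2a libraries. Its groups overlapped through replicate 1, and it rose by 0.58 (SE 0.17, edgeR adjusted p = 0.0422). Rps19, mutated in Diamond-Blackfan anemia, rose by 0.65 (SE 0.18, adjusted p = 0.0373), and Rpl13a, a subunit of the GAIT translational silencing complex, by 0.75 (SE 0.19, adjusted p = 0.0271). Rpl13a has 59.3% of its exon bases under another gene on the same strand. Rpsa, known also as the laminin receptor precursor, was at 0.55 and did not pass (SE 0.19, edgeR adjusted p = 0.0701), nor did Rpl15 at 0.37 (SE 0.11, adjusted p = 0.0512). Rpl41, which encodes the shortest of the proteins, was at 216, 190.3, 196, 184 and 224 CPM in young and 254, 299, 292 and 254 in aged IgG2a libraries, without overlap, and rose by 0.52 (SE 0.12, edgeR adjusted p = 0.0244). Over all members, every aged IgG2a library lay above every young library for 14 of 81, as for 4.88% of all genes tested.

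**Figure D2:**
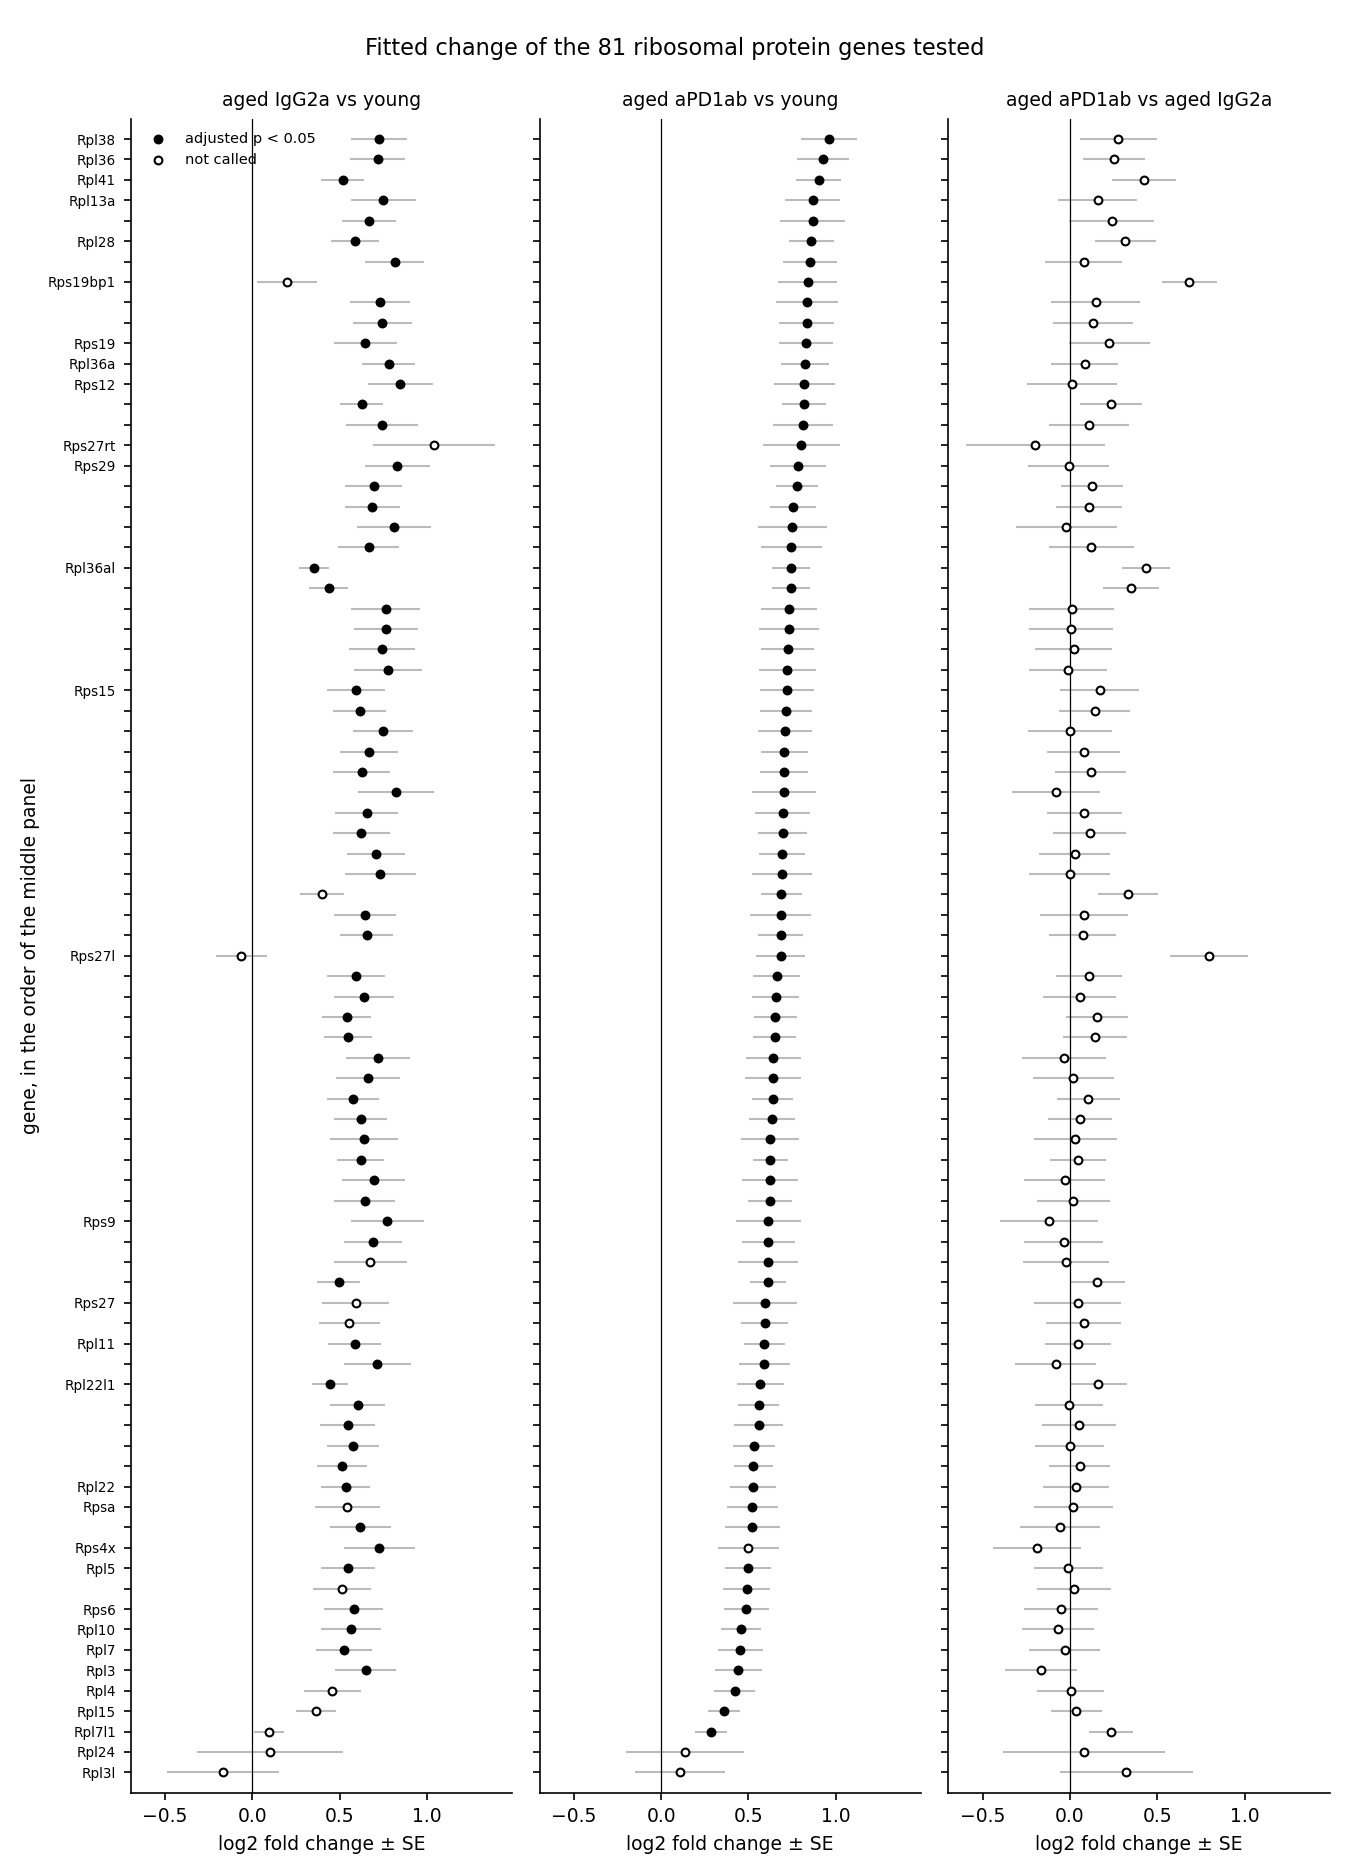
Fitted log2 fold change ± SE of the 81 members tested in aged IgG2a vs young, aged aPD1ab vs young and aged aPD1ab vs aged IgG2a, in the order of the middle panel, with the genes described in the text labelled. Filled points passed the edgeR test (67, 78 and 0 members). The first panel and the middle panel share the young libraries.

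To ask the same of treated mice, aged aPD1ab was compared with the same young libraries. Of the 81 members tested, 78 rose and 0 fell, while 12.4% of all 15986 genes rose and 9.97% fell (edgeR, adjusted p under 0.05). The median log2 fold change was 0.68 for members and 0.02 for all genes, and all 81 members were above 0. Other genes as short as the canonical ones stood above the median of all genes, at 0.43, 0.32 and 0.16 in 3 ranges of coding length given below. Of the canonical genes 72 of 74 rose, with medians of 0.64 for the large and 0.70 for the small subunit. The 3 members that did not pass were Rps4x (0.50, edgeR adjusted p = 0.065), Rpl24 (0.14, adjusted p = 0.802) and Rpl3l (0.11, adjusted p = 0.79). Every aged aPD1ab library lay above every young library for 71 of the 81 members, as for 11.3% of all genes tested. Leaving out 1 library gave 56 to 78 called members, and 54 were called with library totals alone (median 0.54, with -0.11 for all genes).

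Rpl38, a large subunit protein known for its part in translating Hox mRNAs in the mouse embryo, had the highest value. It was at 77.1, 67.8, 73.1, 64.9 and 90.8 CPM in young, 86.65, 126, 128 and 126 in aged IgG2a and 120.4, 125, 196 and 134 in aged aPD1ab libraries. The lowest treated library lay above the highest young library, and the log2 fold change was 0.96 (SE 0.16, edgeR adjusted p = 0.005). Rpl36, another large subunit gene, rose by 0.93 (SE 0.15, adjusted p = 0.00427), from 88.6 ± 15.8 CPM (SD, n = 5) to 167 ± 23.0 (n = 4). Rpl41 rose by 0.90 (SE 0.13, adjusted p = 0.00364), with 318, 363, 457 and 358 CPM in the aged aPD1ab libraries, above all other libraries of the study. Rpl28 was at 236, 306, 297 and 282 CPM in aged aPD1ab libraries and 135 to 188 in young, a rise of 0.86 (SE 0.13, edgeR adjusted p = 0.00374).

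The genes with roles outside the ribosome rose against these same young libraries, among them Rpsa, which did not pass under IgG2a. The log2 fold changes were 0.87 for Rpl13a (SE 0.16, edgeR adjusted p = 0.00633), 0.83 for Rps19 (SE 0.16, adjusted p = 0.00678) and 0.59 for Rpl11 (SE 0.12, adjusted p = 0.00808). They were lower for Rpsa at 0.52 (SE 0.15, edgeR adjusted p = 0.0293), Rpl5 at 0.50 (SE 0.13, adjusted p = 0.0223) and Rps6 at 0.49 (SE 0.13, adjusted p = 0.0226). Rpl15, with the longest run of pyrimidines among the windows above, rose by 0.36 (SE 0.093, edgeR adjusted p = 0.0212), from 134 ± 8.60 CPM (n = 5) to 170.3 ± 9.99 (n = 4). Rpl7l1 rose by 0.28 (SE 0.09, edgeR adjusted p = 0.0451), and stood at 0.09 with age under IgG2a (SE 0.085, adjusted p = 0.448). Of the 5 members highest per length, Rps12 rose by 0.82, Rps29 by 0.78, Rps15 by 0.72, Rps9 by 0.62 and Rpl10 by 0.46 (edgeR adjusted p = 0.00999, 0.00881, 0.0108, 0.0368 and 0.0195).

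To ask what differed with the treatment, aged aPD1ab was compared with aged IgG2a mice. No member passed the test, and 0.0% of all 15530 genes did (edgeR, adjusted p under 0.05), while 4 members and 4341 of all genes had an unadjusted p under 0.05. The median log2 fold change was 0.06 for members and -0.01 for all genes. Other genes in the 3 ranges of coding length of the canonical genes, given below, had medians of 0.27, 0.18 and 0.10. DESeq2 called 3 members, voom with quality weights 3 and 1 fit of 3 groups 4, all higher. Over all genes, DESeq2 called 1257 higher and 811 lower of 25358. Voom called 3248 and 2929 of 15530, and the 1 fit called 1861 and 1002 of 16330. Without aged IgG2a replicate 1, 17.1% of all genes rose and 13.2% fell, yet only Rps27l and Rps19bp1 of the 81 members passed, and the median was -0.06. The median also fell below 0, to -0.05, without aged aPD1ab replicate 3, and it was -0.08 with voom. With library totals alone it was 0.33, beside 0.24 for all genes, and 12 members had an unadjusted p under 0.05.

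The canonical genes thus gave values on both sides of 0 that depended on the libraries used. For Rpl38 the interval of the log2 difference ran from -0.22 to 0.78 and for Rps6 from -0.53 to 0.43 (95%), so changes within these ranges could not be told from none. The lowest values were those of Rps27rt (-0.20, SE 0.40), Rps4x (-0.19, SE 0.25) and Rpl3 (-0.17, SE 0.21), and their direction turned with library totals alone. Rpl41 stood at 0.43 (SE 0.18, edgeR adjusted p = 0.171), and each of its aged aPD1ab libraries lay above each aged IgG2a library. This held for 6 of the 81 members, Rps27l, Rps19bp1 and Rpl36al among them, as for 6.61% of all genes tested.

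**Figure D3:**
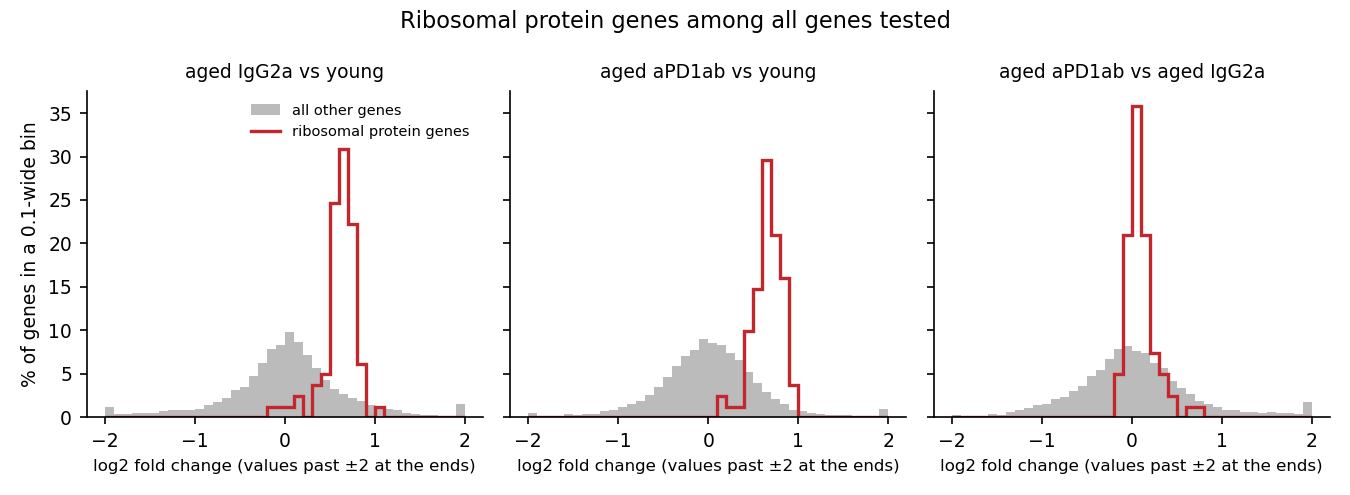
Share of genes in each 0.1-wide bin of log2 fold change, for the 81 members tested (red line) and all other genes tested (grey), in the 3 comparisons. Values past 2 in either direction are put in the end bins. The members form a narrow peak near 0.64 and 0.68 in the comparisons with young mice and near 0.06 between the aged groups.

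Among the paralogs and other members, 2 of 7 tested rose with age under IgG2a (median 0.20) and 6 of 7 under aPD1ab (median 0.68). Of all genes, 9.05% and 12.4% rose in these comparisons. Without aged IgG2a replicate 1, 3 of 7 rose under IgG2a (median 0.11), beside 22.1% of all genes. Rps27l, a paralog of Rps27 and a known p53 target, was at 41.7, 38.5, 41.0, 34.4 and 40.2 CPM in young, 49.6, 34.4, 32.7 and 26.4 in aged IgG2a and 50.8, 83.6, 59.1 and 55.8 in aged aPD1ab libraries. All treated libraries lay above all others, and aged IgG2a replicates 2 to 4 lay at or below the lowest young library. Its log2 fold change was 0.68 for aged aPD1ab vs young (SE 0.14, edgeR adjusted p = 0.00931), -0.06 for aged IgG2a vs young (SE 0.15, adjusted p = 0.779) and 0.79 for aged aPD1ab vs aged IgG2a (SE 0.22, adjusted p = 0.109). Without aged IgG2a replicate 1 the last of these was 0.96 and passed (SE 0.21, edgeR adjusted p = 0.0132), and the age value was -0.25 (SE 0.10, adjusted p = 0.0706). Rps27 itself was at 0.60 and 0.59 in the comparisons with young mice and 0.04 between the aged groups.

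Rps19bp1 was at 6.64, 5.06, 8.72, 5.78 and 6.71 CPM in young, 8.54, 6.77, 6.63 and 6.79 in aged IgG2a and 10.96, 13.5, 10.1 and 12.0 in aged aPD1ab libraries. The treated libraries lay above all others. The gene rose by 0.84 for aged aPD1ab vs young (SE 0.17, edgeR adjusted p = 0.00835), and stood at 0.20 for aged IgG2a vs young (SE 0.17, adjusted p = 0.419) and 0.68 for aged aPD1ab vs aged IgG2a (SE 0.16, adjusted p = 0.109). Without aged IgG2a replicate 1 the treatment value was 0.75 (SE 0.16, edgeR adjusted p = 0.0134). Rpl36al, a paralog of Rpl36a, was at 36.7 to 44.1 CPM in young, 48.9 to 53.0 in aged IgG2a and 57.6 to 78.4 in aged aPD1ab libraries, so that the 3 groups did not overlap. It rose with age under IgG2a by 0.35 (SE 0.09, edgeR adjusted p = 0.0266), a direction that turned with library totals alone (-0.074), and under aPD1ab by 0.74 (SE 0.11, adjusted p = 0.00374), and its value between the aged groups was 0.43 (SE 0.14, adjusted p = 0.115). In Rpl36al 63.1% of the exon bases lie under another gene on the same strand. Rpl22l1, the paralog of Rpl22, rose by 0.44 and 0.57 in the comparisons with young mice (edgeR adjusted p = 0.024 and 0.0155).

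Because the ratio of a paralog to its parent within a library needs no scaling between libraries, it was given as counts per 100 counts of the parent, as a description without a test. Rps27l stood at 26.1, 27.7, 33.9, 27.2 and 22.2 per 100 counts of Rps27 in young libraries, at 34.3, 16.1, 14.1 and 11.1 in aged IgG2a and at 25.7, 49.8, 19.6 and 27.4 in aged aPD1ab libraries. Aged IgG2a replicates 2 to 4 were the lowest 3 of the 13 libraries and replicate 1 the second highest. Rpl36al stood at 61.3 to 81.8 per 100 counts of Rpl36a in young, at 68.3, 47.0, 51.8 and 48.4 in aged IgG2a and at 59.5 to 82.8 in aged aPD1ab libraries. Rpl7l1 stood at 12.3 to 14.2 per 100 counts of Rpl7 in young, at 12.9, 9.38, 9.20 and 8.26 in aged IgG2a and at 9.71 to 14.3 in aged aPD1ab libraries. Rpl22l1, at 13.1 to 16.6 per 100 counts of Rpl22 in young, 13.3 to 16.2 in aged IgG2a and 14.2 to 18.3 in aged aPD1ab libraries, overlapped in all 3 groups. The libraries with low ratios of Rps27l, Rpl36al and Rpl7l1 were those with low proximal tubule markers (1031 to 1646 CPM) and high macrophage markers (4951 to 6927 CPM, against 1476 to 3728 in all other libraries). The part of these cells in the ratios was not tested.

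**Figure D4:**
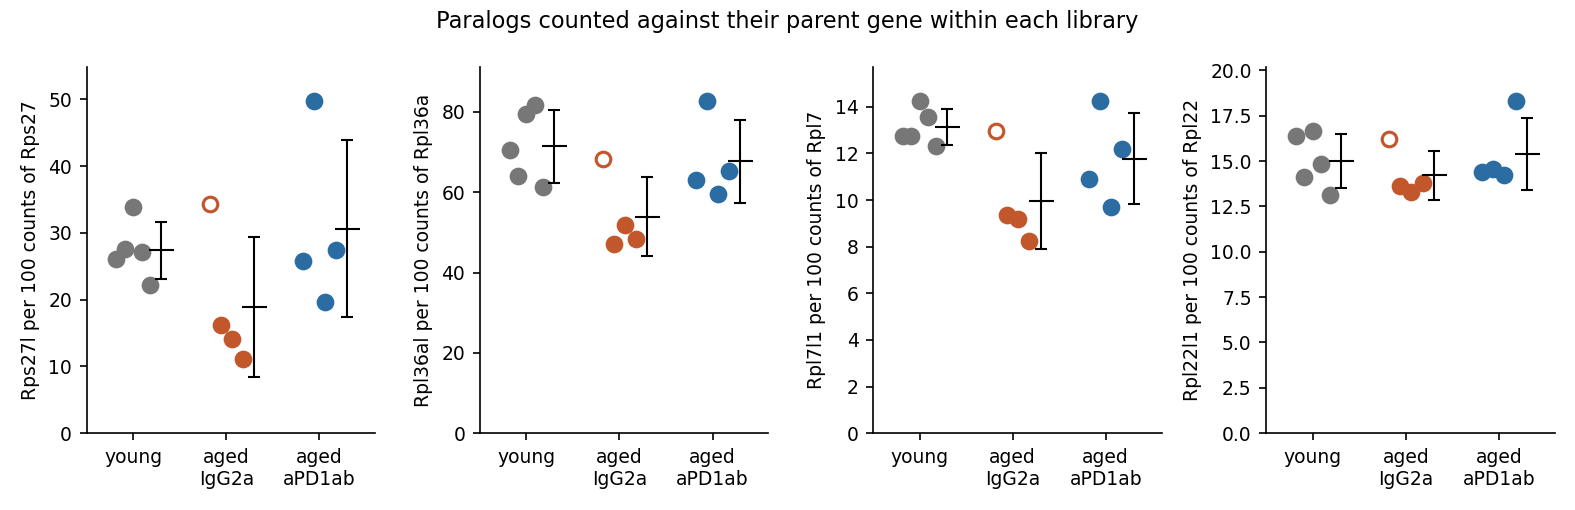
Counts of Rps27l, Rpl36al, Rpl7l1 and Rpl22l1 per 100 counts of their parent gene in each library. Points, the open point for aged IgG2a replicate 1 and the bars (mean ± SD, n = 5, 4 and 4) are as in the plot of counts by library. Aged IgG2a replicates 2 to 4 lie below the other libraries for Rps27l, Rpl36al and Rpl7l1, and not for Rpl22l1.

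Among the 73 canonical genes other than Rpl24, those with a short coding part had the higher values against young mice. For aged aPD1ab vs young the median log2 fold change was 0.75 in the 25 shortest genes (from 75 coding bases), 0.70 in the 23 of middle length (from 408 bases) and 0.56 in the 25 longest (576 to 1257 bases). Spearman's rho between coding length and log2 fold change was -0.61 over these genes, which share libraries and are not independent replicates. The same relation was present outside the members, with a rho of -0.43 over 14042 other genes and medians of 0.43, 0.32 and 0.16 for other genes in the same 3 ranges of length. For aged IgG2a vs young the medians were 0.69, 0.65 and 0.58 (rho -0.41), and the other genes stood at 0.09, 0.10 and 0.06 (rho -0.12). Between the aged groups rho was -0.29 for the members and -0.23 for the others. The medians there were 0.08, 0.05 and 0.03 for the members and 0.27, 0.18 and 0.10 for the other genes. The members thus lay below other genes of the same lengths in that comparison. In the plot of coding length, Rpl41 and Rpl38 stand at the short end and Rpl3 and Rpl4, both near the core of the large subunit, at the long end, with Rpl3 at 0.44 and Rpl4 at 0.42 for aged aPD1ab vs young. RNA integrity was not measured in the table, and its part in the relation was not tested.

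**Figure D5:**
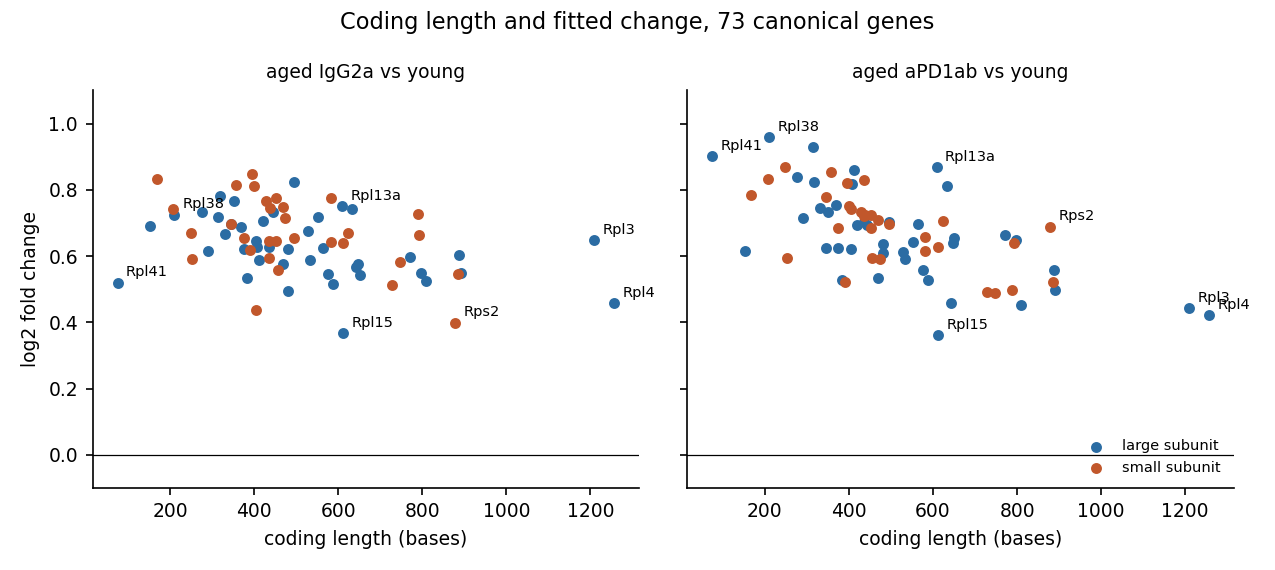
Log2 fold change against the length of the coding part in bases for 73 canonical genes, large subunit in blue and small subunit in orange, in aged IgG2a vs young (left) and aged aPD1ab vs young (right). Values fall with length, from 0.75 in the 25 shortest genes to 0.56 in the 25 longest on the right and from 0.69 to 0.58 on the left.

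The ribosomal protein genes outside the rule, given for IgG2a and then for aPD1ab against young mice, had values in the same range as the members. Rplp2, of the stalk that recruits elongation factors, rose by 0.94 (SE 0.22, edgeR adjusted p = 0.0237) and 0.98 (SE 0.19, adjusted p = 0.008), and Fau, whose product is cut to release RPS30, rose by 0.85 and 0.85 (adjusted p = 0.0305 and 0.0134). Rplp1 rose by 0.69 and 0.76 (edgeR adjusted p = 0.0363 and 0.0126) and Rack1 by 0.57 and 0.42 (adjusted p = 0.0481 and 0.0397). Rplp0 stood at 0.48 (edgeR adjusted p = 0.0662) under IgG2a and rose by 0.49 under aPD1ab (adjusted p = 0.0181).

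For other genes of the translation pathway, the shares of all genes to read the counts against were 9.05% higher and 8.38% lower with age under IgG2a and 12.4% and 9.97% under aPD1ab. Of 11 further RNAs known for a TOP tract (not examined here), 6 rose and 0 fell in each comparison with young mice. Their medians were 0.42 and 0.47. Among these Naca, a subunit of the complex that binds nascent chains, rose by 0.42 under IgG2a and 0.62 under aPD1ab (edgeR adjusted p = 0.0259 and 0.00512), and Tpt1, the tumor protein under translational control, was at 0.39 (adjusted p = 0.134) and rose by 0.60 (adjusted p = 0.0207). Vim, on the same list, stood at 0.49 and -0.14 (edgeR adjusted p = 0.225 and 0.564). Of 17 genes for nascent chain binding, which again include Naca and Btf3, 6 and 8 rose, and 0 and 1 fell. Ssr3 in that list was at -0.02 and -0.09 (edgeR adjusted p = 0.891 and 0.57). Of 29 initiation factors 3 rose and 0 fell under IgG2a, and 10 rose and 1 fell under aPD1ab. Eif4g2 was at -0.27 and -0.16 (edgeR adjusted p = 0.254 and 0.419). Eif1 was at 0.36 (edgeR adjusted p = 0.122) and rose by 0.62 under aPD1ab (adjusted p = 0.0076). The elongation factor Eef1a1 was at 0.35 and 0.26 (edgeR adjusted p = 0.199 and 0.212), and of 10 elongation and termination genes 1 and 5 rose. Eef2 was at 0.22 and 0.17 (edgeR adjusted p = 0.343 and 0.404). Of 42 genes for ribosome assembly 4 and 12 rose and 0 fell, with medians of 0.21 and 0.25, and of 14 RNA polymerase I genes 1 and 3 rose while 0 and 1 fell. Of 19 genes that control TOP mRNAs 1 rose and 1 fell under IgG2a and 1 rose and 3 fell under aPD1ab, and Larp1 was at -0.10 and -0.08 (edgeR adjusted p = 0.416 and 0.62). Of 12 chaperones and importers of ribosomal proteins 1 and 2 rose, and 0 and 2 fell. Without aged IgG2a replicate 1, when 22.1% of all genes rose and 23.5% fell against young mice, the counts were larger. Then 10 of the TOP RNAs, 16 of the assembly genes, 10 of the initiation factors and 5 of the elongation and termination genes rose. In the same order, 0, 3, 5 and 1 genes fell. With all libraries 0 genes of these lists passed between the aged groups (edgeR). Without aged IgG2a replicate 1, 17.1% of all genes were higher there and 13.2% lower. The counts higher and lower were then 5 and 3 for assembly, 2 and 3 for RNA polymerase I and 1 and 3 for TOP control. They were 0 and 2 for the TOP RNAs, 3 and 0 for nascent chain binding and 2 and 1 for initiation factors. For elongation and termination they were 1 and 0, and for chaperones and importers 2 and 0.

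Cell type markers moved with the same comparisons. With age under IgG2a, 8 of 9 macrophage, 3 of 9 T cell and 2 of 8 B and plasma cell markers rose, and all 10 proximal tubule markers, 8 of 10 podocyte, 6 of 7 endothelial and 4 of 6 mesangial markers fell, while 1 podocyte marker rose. With age under aPD1ab, 0 of 9 macrophage and 0 of 10 proximal tubule markers passed in either direction. There 1 of 9 T cell and 2 of 8 B and plasma cell markers rose. Markers that fell were 4 of 10 podocyte, 4 of 6 mesangial and 2 of 7 endothelial. For aged aPD1ab vs aged IgG2a 0 markers passed with all libraries (edgeR), and the medians were 1.93 for proximal tubule and -1.04 for macrophage markers. With aged IgG2a replicate 1 left out, where Rps27l and Rps19bp1 passed, all 10 proximal tubule markers (median 2.71) and 4 of 10 podocyte markers were higher in aged aPD1ab mice, and all 9 macrophage markers (median -1.29), all 5 markers of cycling cells (median -1.41), 2 of 9 T cell markers and 1 podocyte marker were lower. In aged aPD1ab replicate 2, the library lowest in B and plasma cell markers (70.4 CPM, against 107 to 252 in young libraries) and with 1568 CPM of macrophage markers, the members summed to 20301 CPM, above the young range of 12999 to 17485. Podocyte markers were lowest there, at 340 CPM, and proximal tubule markers highest, at 16106 CPM. Among aged aPD1ab libraries that library was lowest in macrophage markers and in members, and replicate 3 was highest in both (3728 and 27899 CPM). Aged IgG2a replicate 1 was lowest of its group in both (2186 and 16059 CPM, against 4951 to 6927 and 22846 to 23802). Young replicate 2 was highest of its group in macrophage markers (2630 CPM) but not in members (14146 CPM). Of the marker genes, T cell Cd3g and Cd5 were at 0 in 1 or more libraries and all others were above 0 in every library. The part of these cells in the levels of the ribosomal protein genes was not tested.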

How the data were processed

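The authors isolated podocyte fractions by magnetic sorting, made TruSeq RNA libraries and deposited raw read counts per Ensembl gene. The submitters' processing notes name HISAT2, featureCounts and the builds mm10 and GRCm38, without versions, and the strand setting is not given in the sources used here. Of the columns, 13 were tied to a group by the numbers printed in the study's principal component plot and 2 others were not used. Positions, lengths and overlaps came from GENCODE M21 (GRCm38) and start sequences from RefSeq.

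Each pair of groups was fitted alone in R 4.3.3 with edgeR 4.0.16 (robust quasi-likelihood test, TMM scaling, filterByExpr, Benjamini-Hochberg over all genes, call at an adjusted p under 0.05). Alternatives used limma 3.58.1 (voom) and DESeq2 1.42.0, other scalings and filters, and left out each library. In simulated data for aged IgG2a vs young, 199 of 200 changed genes were recovered with 16 false calls. The median fitted change was 0.98 (log2), which is larger than that of the members (0.64). The simulated counts had the same spread for every gene and no library apart, so these rates do not carry over to the data. CPM in the text are counts scaled by TMM over 13 libraries, and 3 counts in a library (0.0917 to 0.151 CPM) were taken as the floor. These limits reflect counting error alone. No pair of libraries of a group agreed within sampling noise.

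Members and lists were chosen with earlier results of these data known. Named members were, in each comparison, the 3 highest and 3 lowest, paralogs with their parents, Rpsa, Rps6, Rps19, Rpl5, Rpl11, Rpl13a, Rpl41 and the 5 highest per length. Rpl15, Rpl28 and Rpl4 in the text, and Rps2 in a plot, were added after their values were seen. Some genes are not reported here. Between the aged groups a subset of the named members is given. Protein sequences were not used here.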

Additional observations from a re-analysis of the deposited data

Results flagged for a closer look

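In groups of 4 or 5 libraries, 13 of 96 group values had 1 library far from the others (Dixon's criterion at the 95% level, which chance meets in about 1 of 20 groups), and most of these share a library. Aged IgG2a replicate 1 was the library apart for 9 members. It was low at 73.7 CPM for Rpl36a (the other 3 at 102 to 105), 86.65 for Rpl38 (126 to 128), 339 for Rpl5 (445 to 461), 2.72 for Rps27rt (8.69 to 9.79), 399 for Rps4x (635 to 650.4), 251 for Rps6 (368.7 to 382.98), 388 for Rps9 (649 to 694) and 434 for Rpsa (647 to 668), and high at 8.54 for Rps19bp1 (6.63 to 6.79). Aged IgG2a replicate 4 was low for Rpl7l1 at 39.9 CPM, against 46.8 to 48.1. Aged aPD1ab replicate 3 was high for Rps15 at 455 CPM, against 299 to 315. Young replicate 5 was high for Rpl10 at 506 CPM, against 412 to 429, and young replicate 2 was low for Rpl36al at 36.7 CPM, against 42.2 to 44.1.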

How the results depend on the processing

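The number of members that rose with age under IgG2a (67) became 31 with no filter, 0 with a change over 2-fold and 0 with total counts alone, and ranged from 1 to 76 without 1 library. The number of all genes that rose (1443) became 828 with no filter and 331 with total counts alone. It ranged from 260 to 3584 without 1 library. The median of 0.64 became 0.18 with total counts alone and ranged from 0.58 to 0.75 without 1 library. For aged aPD1ab vs young the 78 became 0 with a change over 2-fold and 56 to 78 without 1 library (median 0.55 to 0.73). For aged aPD1ab vs aged IgG2a the count of 0 became 4 with 1 fit of 3 groups, 3 with DESeq2, 3 with voom and 0 to 2 without 1 library (median -0.06 to 0.12), and the median of 0.06 became 0.33 with total counts alone. Over all genes, 1861, 1257 and 3248 were called higher by the 1 fit, DESeq2 and voom. The count of members that fell was 0 in each comparison. The share of counts outside mitochondrially encoded genes was 2.20%, 3.25% and 3.20% in young, aged IgG2a and aged aPD1ab mice, and the TMM-scaled share was 2.14% in aged IgG2a. The share of all counts was 1.62%, 1.83% and 2.30% in the same order. Without 1 library that share ranged from 1.55% to 1.69%, 1.73% to 1.89% and 2.23% to 2.39%. With total counts alone the direction turned for Rpl15 (-0.074), Rpl36al (-0.074), Rpl7l1 (-0.32) and Rps19bp1 (-0.19) in aged IgG2a vs young, for Rpl3 (0.12), Rps27rt (0.11) and Rps4x (0.093) between the aged groups and for Rpl3l (-0.017) in aged aPD1ab vs young. With voom it turned for Rpl36a (-0.033) and Rps27 (-0.11) between the aged groups. Without 1 library it turned between the aged groups for Rpl36a (range -0.050 to 0.16) and Rps27 (-0.16 to 0.15), each without aged IgG2a replicate 1 or aged aPD1ab replicate 3, in aged IgG2a vs young for Rpl3l (-0.55 to 0.025, without aged IgG2a replicate 3) and Rps27l (-0.25 to 0.030, without aged IgG2a replicate 4), and in aged aPD1ab vs young for Rpl3l (-0.050 to 0.23, without aged aPD1ab replicate 1) and Rpl24 (-0.0081 to 0.30, without aged aPD1ab replicate 2). The cause was not tested. No paired analysis was possible because the labels give the groups no shared replicate numbers. Depth of 19912969 to 32717100 counts limits Rpl3l, Rpl24, Rpl10l and Rpl39l, near or below 1 CPM per kb.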
